A study of Mus musculus with 9 samples.

Results

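The genes of one signalling loop were followed in mouse ovary: the feedback inhibitors Socs1, Socs2, Socs3 and Cish, the transcription factor Stat3, the ligands Il6 and Lif, and the receptor subunits Il6ra, Il6st and Osmr. All 10 were found by gene symbol in a deposited table of 33450 rows that covers 24153 symbols, and for each the row with the highest mean level was used. The 10 genes were chosen by their known roles and with the FPKM of these same groups, and the differences between them, already known, so the values below describe the genes and test nothing. The ovaries came from 9 C57BL/6J mice aged 15 weeks, in 3 groups of 3. Control mice ate standard chow with 16% of fat. The others ate a diet with 60% of fat for 10 weeks and are labelled HFLN where they remained lean and HFOB where they became obese, so that those labels record how each animal responded and not an assigned treatment. Each gene has 1 FPKM value per group (a fragment count per kilobase of transcript and per unit of mapped fragments) with a deposited lower and upper bound, at a confidence level not given in the sources used here. The animals of a group are combined in it, so no SD, n or p-value can be given and the number of animals behind a difference is unknown.

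Cytokines of the IL-6 family bind a specific receptor subunit, such as the products of Il6ra and Osmr, which pairs with the shared signalling subunit gp130, the product of Il6st. Receptor-bound JAK kinases then phosphorylate STAT3, which enters the nucleus and switches on target genes, Socs3 among them. SOCS proteins and CIS, the product of Cish, bind the activated receptors or kinases and shut the signal down, so their transcripts are widely used as a readout of recent cytokine signalling. In the ovary, IL-6 family cytokines are known from the cumulus and granulosa cells around ovulation, while Cish and Socs2 are known targets of STAT5 downstream of prolactin and growth hormone.

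STAT dimers recognise the letters TTCNNNGAA. The promoter windows of Socs1 and Socs3 are shown because these genes had the lowest log2 folds of HFOB against control, and that of Cish because it is a known STAT target. Each window runs from 250 bases before to 50 bases after the start listed for the gene (RefSeq, GRCm38.p6). It is given 5′ to 3′ on the gene's strand, with matches to TTCNNNGAA in capitals. The windows are chr16:10785487-10785786 on the minus strand for Socs1, chr11:117969317-117969616 on the minus strand for Socs3 and chr9:107296409-107296708 on the plus strand for Cish.
Socs1: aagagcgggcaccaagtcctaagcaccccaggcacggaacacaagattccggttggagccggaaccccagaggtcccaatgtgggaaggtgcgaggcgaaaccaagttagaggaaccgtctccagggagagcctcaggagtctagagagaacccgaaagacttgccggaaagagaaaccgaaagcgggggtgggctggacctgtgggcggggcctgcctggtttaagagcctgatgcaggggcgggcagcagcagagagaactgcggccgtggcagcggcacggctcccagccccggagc
Socs3: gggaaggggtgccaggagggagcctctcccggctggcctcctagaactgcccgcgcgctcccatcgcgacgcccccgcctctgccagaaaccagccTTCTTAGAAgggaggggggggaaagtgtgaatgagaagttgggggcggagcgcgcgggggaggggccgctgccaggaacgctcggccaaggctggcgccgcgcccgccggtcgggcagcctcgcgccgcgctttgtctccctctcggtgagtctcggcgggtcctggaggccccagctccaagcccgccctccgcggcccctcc
Cish: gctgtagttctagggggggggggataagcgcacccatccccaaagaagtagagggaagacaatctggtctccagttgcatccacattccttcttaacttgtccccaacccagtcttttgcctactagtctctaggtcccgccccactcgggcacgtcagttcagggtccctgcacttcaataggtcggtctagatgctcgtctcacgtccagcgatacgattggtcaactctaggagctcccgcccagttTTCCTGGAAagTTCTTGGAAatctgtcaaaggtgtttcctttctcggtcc
Socs3 held 1 match, TTCTTAGAA, with its first base 154 bases before the start used for its window. That start lies inside the annotated span of Socs3, which reaches 117970336 on chromosome 11. The match therefore lies within that span and not upstream of it. Cish held 2, TTCCTGGAA at bases 1 to 9 and TTCTTGGAA from base 12 of the transcript. Socs1 had no match in this window.

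A window was found for 9 of the genes, Socs2 being the exception. The starts used for the Stat3 and Osmr windows, like that of Socs3, lie inside the annotated gene spans. On either strand, TTCNNNGAA occurred in 2 of the 9 windows and in 8.30% of the 32851 promoter windows of the same length in the annotation. The AP-1 motif TGANTCA occurred in 3 of the 9, those of Il6, Lif and Osmr, and in 7.81% of all windows. TGACGTCA, the cyclic AMP response motif, was in 0 of the 9 and in 1.79% of all. The matches of different motifs did not overlap in these windows. Such matches describe the letters and not the binding of a factor.

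**Figure D1:**
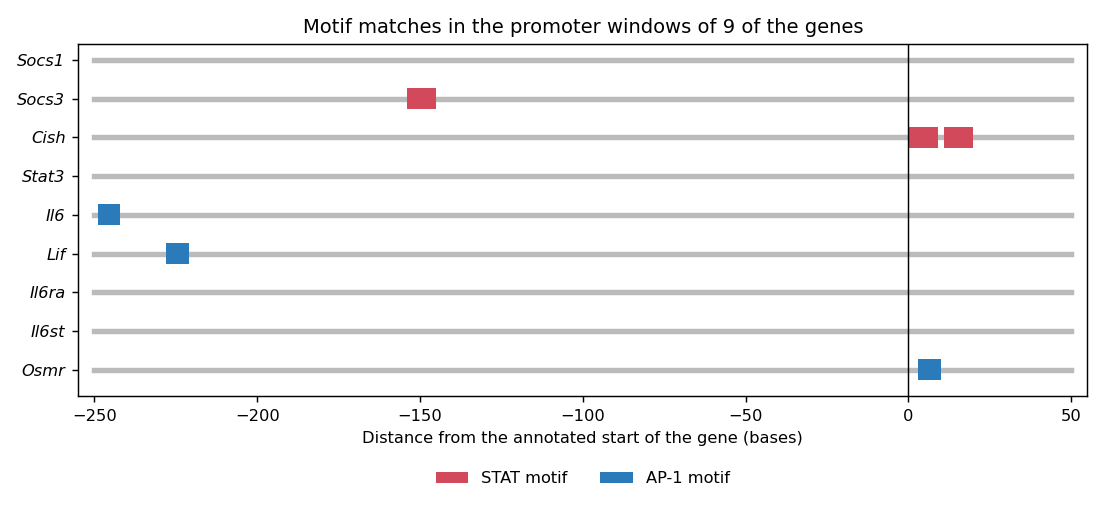
Position of motif matches, in bases from the start used for each gene's window (x axis), in the promoter windows of 9 genes (y axis). For Socs3, Stat3 and Osmr that start lies inside the annotated gene span. The STAT motif TTCNNNGAA is in red and the AP-1 motif TGANTCA in blue; the STAT matches lie in Socs3 and Cish and the AP-1 matches in Il6, Lif and Osmr.

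Among the feedback inhibitors, Socs3 and Socs1 stood lowest in HFOB, while Socs2 and Cish differed less and to a similar extent in both diet groups. Socs3 (chromosome 11, 117966079 to 117970336), the inhibitor that binds gp130 itself, stood at 39.4 FPKM in control mice (deposited interval 20.8 to 58.0), 31.4 in HFLN mice (6.74 to 56.1) and 13.6 in HFOB (6.04 to 21.1). The HFOB value was thus 2.91-fold below control and 2.32-fold below HFLN, and HFLN was 1.25-fold below control. The intervals of control and HFOB met over 0.286 FPKM, and that of HFLN spanned nearly the whole of both. On the log2(FPKM + 1) scale, on which all log2 folds here were computed, Socs3 differed from control by -0.32 in HFLN and -1.47 in HFOB.

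Socs1 (chromosome 16, 10783808 to 10785536), which blocks JAK kinases directly and is also known as an inhibitor of interferon signalling, stood at 37.2 FPKM in control mice (15.6 to 58.8), 23.9 in HFLN mice (7.48 to 40.2) and 14.4 in HFOB mice (3.33 to 25.5). HFLN lay between the other groups, 1.56-fold below control, and HFOB was 2.59-fold below control. All 3 intervals overlapped, those of control and HFOB over 9.84 FPKM. The log2 folds were -0.62 in HFLN and -1.31 in HFOB against control, and -0.69 in HFOB against HFLN.

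Cish (chromosome 9, 107296659 to 107302784) stood at 50.04 FPKM in control mice (28.7 to 71.4), 36.1 in HFLN mice (20.4 to 51.9) and 32.0 in HFOB mice (18.8 to 45.1). Socs2 (chromosome 10, 95383903 to 95417321), a negative regulator of growth hormone signalling, was the most abundant of the 10 genes at 158 FPKM in control mice (101 to 214), 123 in HFLN mice (80.3 to 167) and 116 in HFOB mice (73.6 to 158). Control was highest for both genes, the diet groups lay close together, and all intervals overlapped. Against control, the log2 folds of Cish were -0.46 in HFLN and -0.63 in HFOB, and those of Socs2 were -0.35 and -0.44. Between the diet groups they were -0.17 and -0.09.

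**Figure D2:**
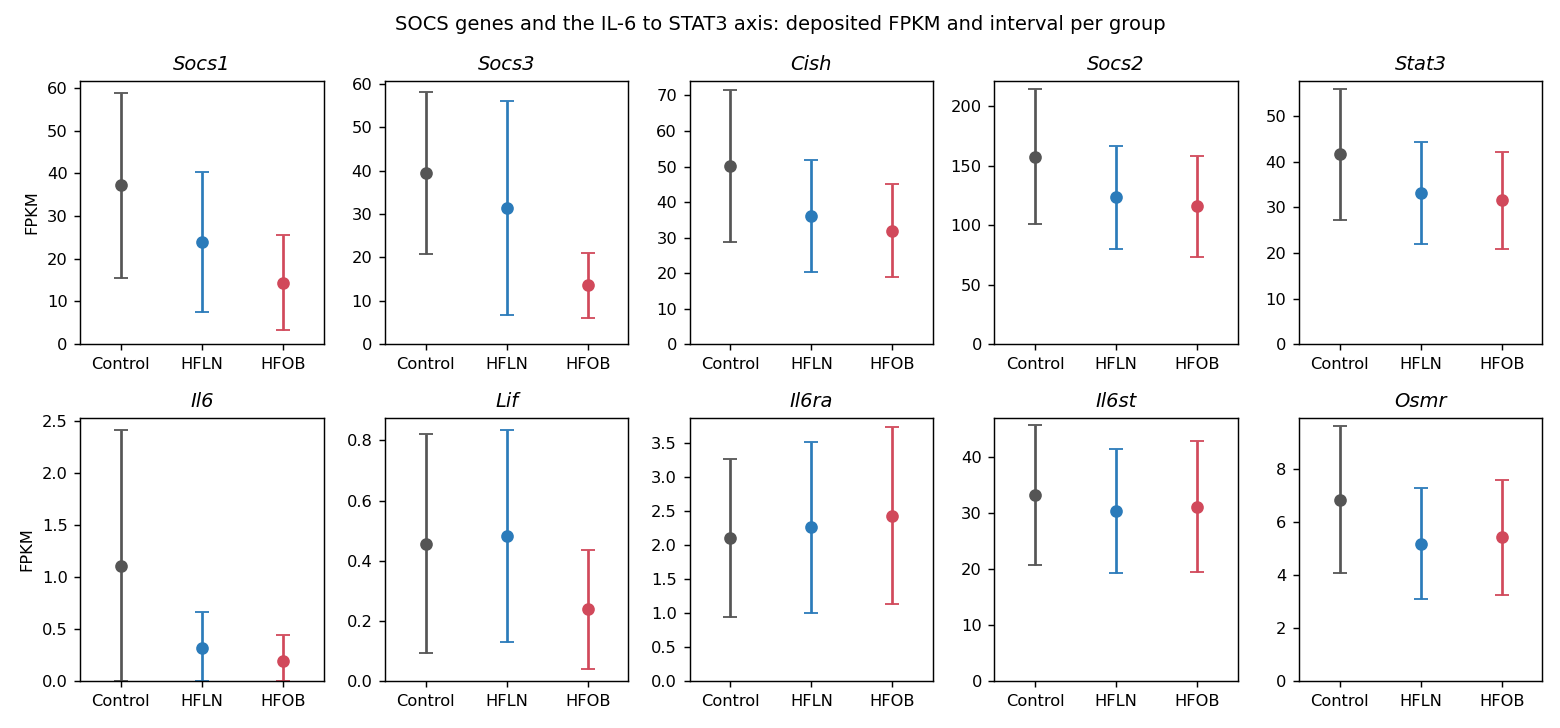
FPKM (y axis, from 0, 1 scale per panel) of the 10 genes in control, HFLN and HFOB; points are the deposited group values and bars the deposited intervals. Socs3 in HFOB, at 13.6 FPKM, lies below control at 39.4 FPKM with intervals that meet over 0.286 FPKM, and no pair of intervals of any of the 10 genes is separate.

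The width of the intervals differed between the feedback genes. In HFLN the upper bound of Socs3 lay 78.6% above its value, and 5.77% of the 9573 protein-coding rows of at least 5 FPKM in that group had an interval as wide or wider. For Socs1 the figure was 68.6% in HFLN and 76.9% in HFOB. Socs2 and Cish were near or below the medians over such rows, which were 40.8% in control, 40.1% in HFLN and 40.4% in HFOB: Socs2 ran from 35.0% to 36.4% and Cish from 41.1% to 43.5%. The level of Socs3 in HFLN was therefore the least precisely placed of the feedback genes' values.

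Socs1, Socs3 and Cish each had a second row in the table at the same locus, carrying a transcript identifier of the same gene. This held for 877 of 19292 protein-coding symbols, or 4.55%. How the authors' tools divided fragments between such rows was not given in the sources used here, and the level of these 3 genes is uncertain for that reason. The second row of Socs3 stood at 12.4 FPKM in control mice (2.33 to 22.5), 18.1 in HFLN mice (2.33 to 33.9) and 5.31 in HFOB mice (0.393 to 10.2), which puts HFLN above control and HFOB again lowest. The second row of Socs1 stood at 26.6, 22.6 and 10.9 FPKM in control, HFLN and HFOB, and that of Cish at 5.63, 5.59 and 3.87. With both rows added, Socs3 came to 51.8 FPKM in control mice, 49.5 in HFLN mice and 18.9 in HFOB mice. Its log2 fold of HFLN against control then shrank from -0.32 to -0.06, while that of HFOB was -1.41. The summed rows of Socs1 gave log2 folds of -0.45 in HFLN and -1.31 in HFOB, and those of Cish -0.41 and -0.62.

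**Figure D3:**
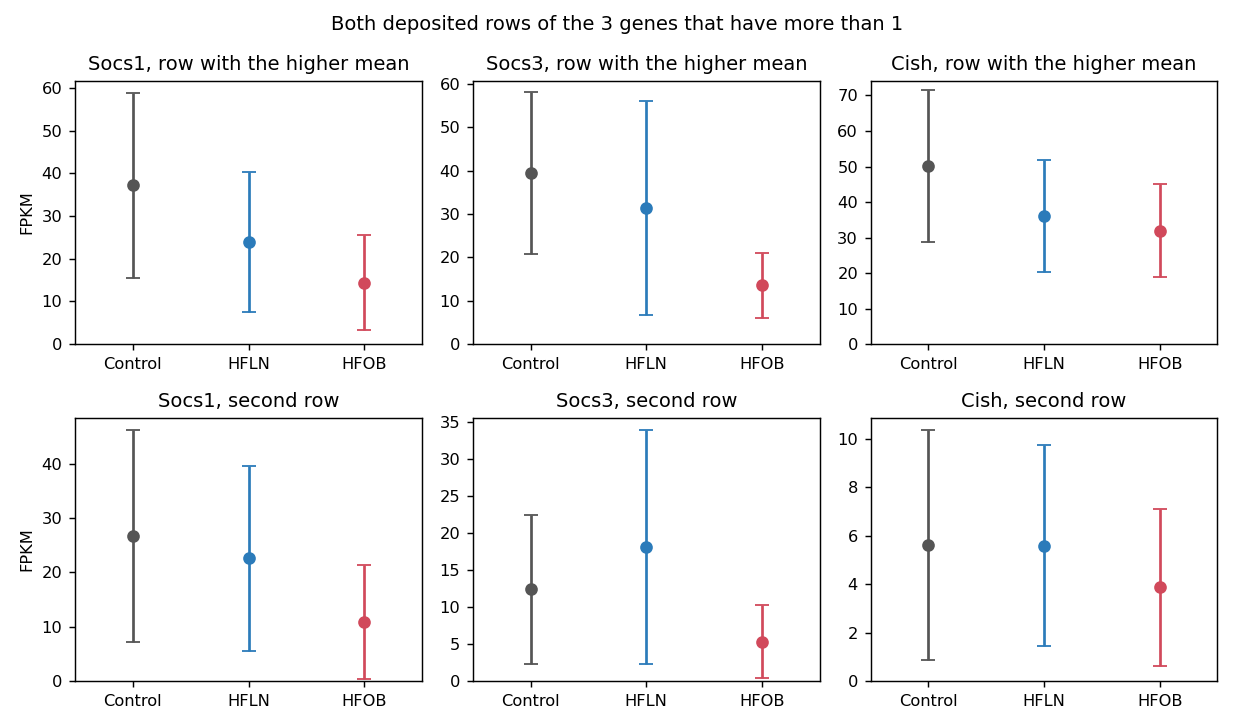
FPKM (y axis, from 0) of both deposited rows of Socs1, Socs3 and Cish in control, HFLN and HFOB, with points for group values and bars for deposited intervals. HFOB is lowest in all 6 panels, whereas HFLN lies above control in the second row of Socs3, at 18.1 against 12.4 FPKM.

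The transcription factor and the ligands stood at very different levels. Stat3 (chromosome 11, 100886806 to 100939594) stood at 41.6 FPKM in control mice (27.2 to 55.9), 33.1 in HFLN mice (22.0 to 44.2) and 31.6 in HFOB mice (20.9 to 42.2). Both diet groups lay 1.25-fold and 1.32-fold below control, within overlapping intervals. Il6 (chromosome 5, 30013114 to 30019975) reached 1 FPKM in control alone, at 1.11 (0 to 2.41), against 0.312 in HFLN (0 to 0.666) and 0.192 in HFOB (0 to 0.440). The plain ratios, 3.56-fold and 5.77-fold below control, are the widest of the 10 genes, but every interval of Il6 reaches 0. Its log2 folds, damped by the pseudocount at this level, were -0.69 and -0.82. Lif (chromosome 11, 4257568 to 4272514), whose product signals through gp130 and the LIF receptor, stayed under 1 FPKM throughout, at 0.457 in control mice (0.0917 to 0.822), 0.482 in HFLN mice (0.128 to 0.836) and 0.238 in HFOB mice (0.0392 to 0.436). A difference in either ligand was not resolved at these levels.

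Of the receptor subunits, Il6st and Il6ra differed little, and Osmr stood below control in both diet groups within overlapping intervals. Il6st (chromosome 13, 112464070 to 112506860) stood at 33.1 FPKM in control mice (20.6 to 45.6), 30.2 in HFLN mice (19.2 to 41.3) and 31.1 in HFOB mice (19.4 to 42.7). Il6ra (chromosome 3, 89869324 to 89913196), the IL-6 binding subunit, stood at 2.098 (0.938 to 3.26), 2.26 (1.00 to 3.52) and 2.43 (1.13 to 3.73) in the same order, and was the one gene whose value was above control in both diet groups. Osmr (chromosome 15, 6813568 to 6874968), the subunit for oncostatin M, stood at 6.83 (4.06 to 9.60), 5.18 (3.08 to 7.27) and 5.42 (3.25 to 7.58). The log2 folds against control lay between -0.34 and 0.15 for these 3 genes. Antisense genes are annotated across parts of Il6ra (Gm42809) and Cish (Gm17041), and Cish also overlaps the pseudogene Gm17040 on the other strand; the strand setting of the counting was not given in the sources used here, and reads from them cannot be told apart.

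**Figure D4:**
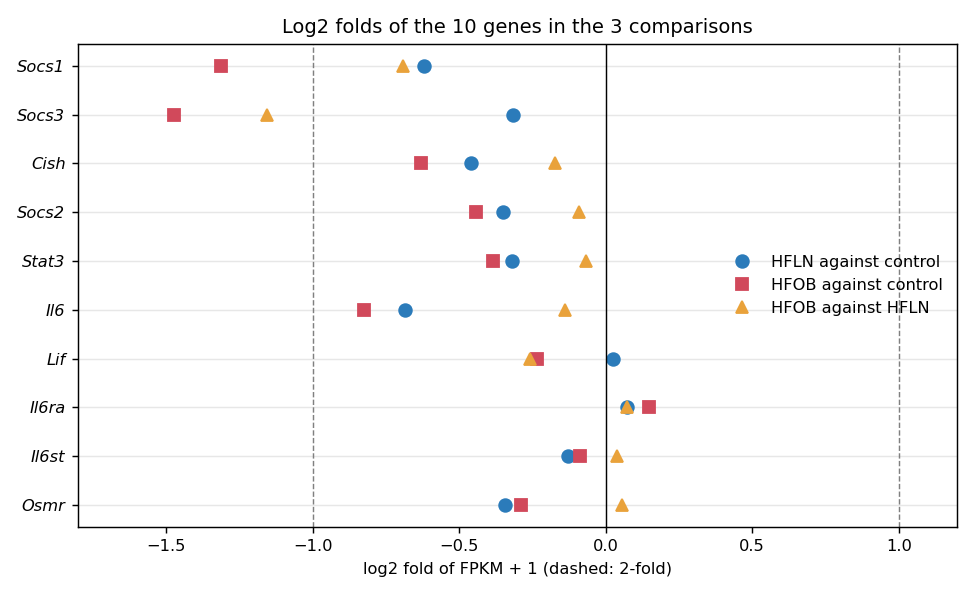
Log2 folds of FPKM + 1 (x axis) of the 10 genes (y axis) in HFLN against control, HFOB against control and HFOB against HFLN; dashed lines mark 2-fold. Both comparisons with control share the control values; Socs1 and Socs3 lie beyond 2-fold in HFOB against control, at -1.31 and -1.47, and Socs3 also in HFOB against HFLN, at -1.16.

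The order of levels placed Socs2 first and the ligands last in every group. In control, Socs2 was followed by Cish, Stat3, Socs3, Socs1 and Il6st, from 50.04 down to 33.1 FPKM, and the intervals of neighbours among these 5 overlapped. Osmr, Il6ra, Il6 and Lif followed at 6.83 FPKM and less. The gaps without overlap in control lay between Socs2 and Cish, between Il6st and Osmr, and between Osmr and Il6ra. In HFOB, Socs1 and Socs3 came after Il6st, at 14.4 and 13.6 FPKM against 31.1. The interval of Il6st (19.4 to 42.7) still overlapped those of Socs1 (3.33 to 25.5) and Socs3 (6.04 to 21.1).

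A row was said to pass when its log2(FPKM + 1) fold was at least 2-fold, the deposited intervals of the groups did not overlap, 1 or more groups reached 1 FPKM and the status was OK. Lif missed the FPKM minimum, and Il6 met it only through control. Of the 9 genes considered, 0 passed in HFLN against control, where 0.283% of 16932 rows did. In HFOB against control 0 of 9 passed, with 0.366% of 16929 rows passing, and in HFOB against HFLN 0 of 9, with 0.195% of 16931. Without regard to the intervals, 2 of 9 lay at least 2-fold lower in HFOB than in control (Socs1 and Socs3; 0.874% of all rows), 0 of 9 in HFLN than in control (1.16%) and 1 of 9 in HFOB than in HFLN (Socs3; 0.520%). Over all 10 genes, 8 were below control in HFLN, with a median log2 fold of -0.33, and 9 in HFOB, with a median of -0.41, while 7 were lower in HFOB than in HFLN, with a median of -0.11. Of all rows considered, 49.9% were below control in HFLN, 53.0% were below control in HFOB and 52.2% were lower in HFOB than in HFLN, with medians of 0.00037, -0.010 and -0.0071. Since these contrasts were in view when the genes were chosen, the counts and medians describe the choice.

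Of 13064 protein-coding rows, 16 had a log2 fold in HFOB against control as low as that of Socs3, itself included, and 26 as low as that of Socs1. In HFOB against HFLN, 16 of 13065 were as low as Socs3 and 182 as low as Socs1. To find the genes most like Socs3, the Euclidean distance over both log2 folds against control was taken among 9433 protein-coding rows of at least 5 FPKM in control, which compares 3 group values and no single animals. The nearest row was the second row of Socs1, at a distance of 0.27, and the main row of Socs1 ranked 4 at 0.34. Also close was A2ml1, a protease inhibitor of the alpha-2-macroglobulin family, at 23.3 (13.6 to 33.1), 16.7 (8.44 to 24.9) and 9.498 FPKM (4.83 to 14.2). Rnf152, a lysosomal ubiquitin ligase, ranked 5 at 6.64, 4.37 and 2.46 FPKM, and of the rows named here it alone passed in HFOB against control.

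The rest of the pathway was read from 7 lists with 61 rows, of which 55 reached 1 FPKM in a group. In each of the 3 comparisons 0 of these 55 passed, with 0.283%, 0.366% and 0.195% of all rows passing, shares at which a list of this size would hold fewer than 1 passing row. The JAK kinases differed little: Jak1 stood at 95.4, 93.7 and 95.6 FPKM in control, HFLN and HFOB, and Jak2 at 15.8, 15.6 and 14.5. The row of Jak3 is merged with Insl3, a hormone of theca cells, and the row of Tyk2 with Cdc37, so neither can be read for the kinase. Inhibitors outside the 4 feedback genes of the list also differed little: the 12 rows of Socs4 to Socs7, the PIAS proteins and the phosphatases had medians of -0.06 in HFLN and -0.05 in HFOB against control. The widest of them were Ptpn6, the phosphatase SHP-1, at 6.20, 7.95 and 7.03 FPKM, and Pias4 at 23.2, 19.1 and 22.2.

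Stat2, which carries interferon signals, stood at 19.6 FPKM for control (12.4 to 26.8), 24.5 for HFLN (15.8 to 33.1) and 18.6 for HFOB mice (11.8 to 25.4). All of these intervals overlapped. A link between Stat2 and Socs1, an inhibitor of those signals, was not tested. The receptors upstream of STAT5 stood close to control: Prlr, the prolactin receptor, at 36.8, 39.9 and 30.8 FPKM and Ghr, the growth hormone receptor, at 26.7, 26.6 and 31.1.

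Among other ligands and receptors of the family, 4 of 7 ligand rows and 5 of 6 receptor rows reached 1 FPKM. Cntfr, the receptor subunit for ciliary neurotrophic factor, stood at 7.90, 6.22 and 5.21. The rows of Clcf1 (merged with Pold4), Cntf (with Zfp91) and Il27ra (with Rln3) hold more than 1 gene. Clcf1 was at 42.8, 34.5 and 38.2 FPKM and Cntf at 22.6, 24.01 and 22.9, values that cannot be assigned to the cytokine.

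Several of the 10 genes lie beside a relative of their family. Osm, the oncostatin M gene, ends 16.5 kb from Lif on chromosome 11 and stood at 0.529, 0.314 and 0.223 FPKM, like Lif under 1 in every group. Stat5a lies 1.64 kb from Stat3 and stood at 19.3, 19.1 and 16.9 FPKM, and Stat5b, 27.8 kb away, at 31.4, 32.7 and 29.8. The differences from control of all 3 STAT genes lay within overlapping intervals. Lifr, 216 kb from Osmr, had 2 rows of similar level that differed in order, at 5.75, 6.43 and 5.89 FPKM and at 5.43, 4.71 and 4.46, so no contrast with Osmr can be read from it. Il31ra, 15.1 kb from Il6st, stood at 0.240, 0.226 and 0.255 FPKM.

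Most genes known as STAT3 or acute-phase targets stood below control in both diet groups. Of 20 such genes, 16 were below control in HFLN (49.9% of all rows) with a median log2 fold of -0.32, and 19 in HFOB (53.0% of all rows) with a median of -0.31, whereas the median of HFOB against HFLN was -0.02. Above control in HFLN were Hp (21.6, 30.0 and 20.3 FPKM in control, HFLN and HFOB), Lcn2 (14.9, 21.8 and 11.6) and, by little, Mcl1 and Bcl2l1. Serpina3n (2.32, 1.48 and 2.70) alone stood above control in HFOB. The widest of the 20 were Timp1, an inhibitor of matrix proteases, and Junb, an AP-1 subunit. Timp1 stood at 597 FPKM in control mice (57.7 to 1135), 192 in HFLN mice (76.4 to 307) and 163 in HFOB mice (63.4 to 262), and Junb at 82.5 (45.9 to 119), 34.0 (20.9 to 47.1) and 45.0 (28.5 to 61.5). With Cebpb, named after its value was seen, at 186, 84.5 and 122 FPKM, these were the 3 of 20 at least 2-fold lower in HFLN than in control (1.16% of all rows). In HFOB against control it was 1 of 20, Timp1 (0.874% of all rows), and in HFOB against HFLN 0 of 20 (0.520%). Set against HFLN, 11 of 20 were lower in HFOB (52.2% of all rows), Timp1 among them, and 9 were higher, Junb and Cebpb among them. All of these intervals overlapped. Many of these genes also respond to other signals, so the list does not isolate STAT3.

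**Figure D5:**
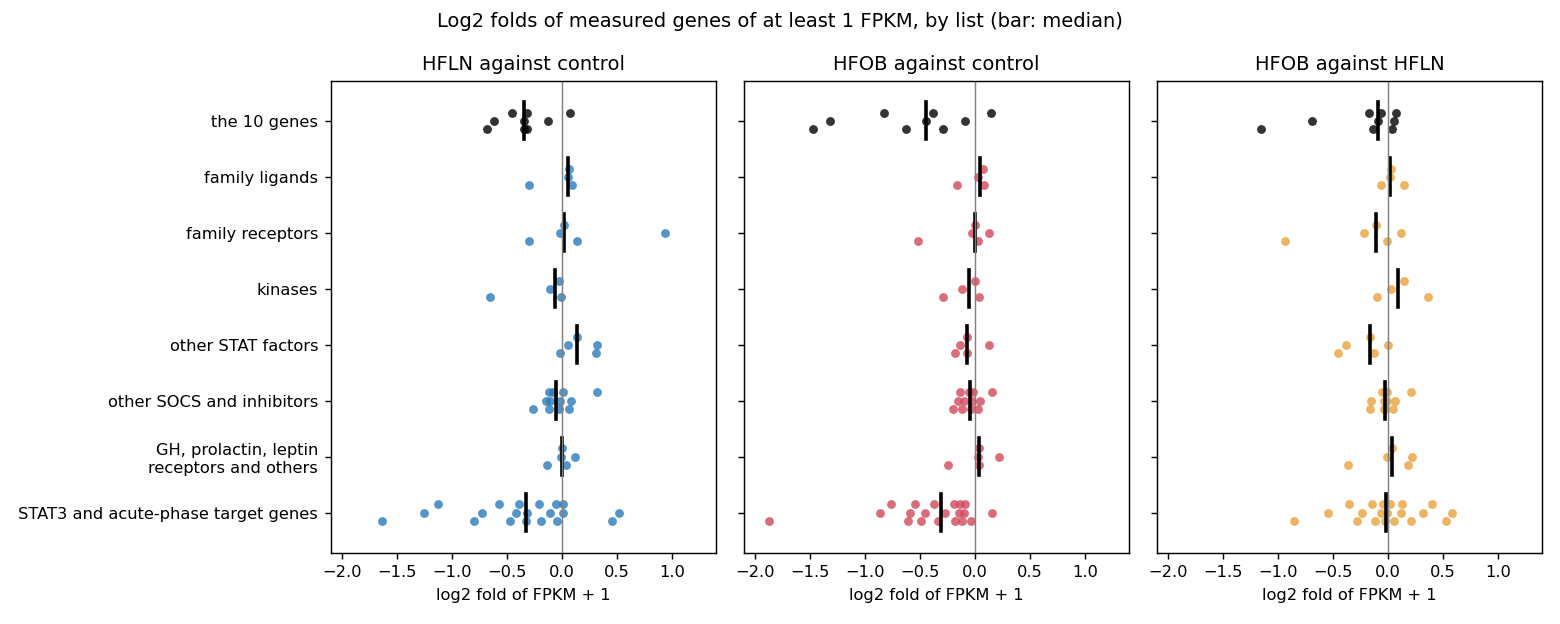
Log2 folds of FPKM + 1 (x axis) of the genes that reached 1 FPKM in a group, by list (y axis), for the 3 comparisons; each point is a gene and each bar the list's median. The STAT3 target list has medians of -0.32 and -0.31 against control and -0.02 in HFOB against HFLN.

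Marker genes were read for the cells present. Granulosa and oocyte markers were abundant, with Inha at 1712 FPKM and Gdf9 at 51.4 in control. Of 5 granulosa markers, 5 were below control in HFLN (49.9% of all rows), with a median log2 fold of -0.28. In HFOB 3 of 5 were below it (53.0% of all rows), with a median of -0.12, and 4 of 5 stood above HFLN. The row of Foxl2 is merged with Faim, and a second row of Fshr was above control in HFLN, at 4.71 against 3.78 FPKM. Cyp19a1, the widest of the 5, stood at 20.7, 14.5 and 12.2 FPKM in control, HFLN and HFOB, within overlapping intervals. Socs1, Socs2, Cish, Stat3, Il6 and the main row of Socs3 had that order of groups. The part of granulosa cells in their values was not tested. In whole ovary, fewer cells of a type and less RNA per cell cannot be told apart. The 4 markers of ciliated oviduct epithelium summed to 51.2 FPKM in control mice, 85.8 in HFLN mice and 34.7 in HFOB mice, with 4 of 4 above control in HFLN, where 49.9% of all rows were below it, and 4 of 4 below control in HFOB, where 53.0% of all rows were. The second row of Socs3 had the same order of groups, as did Lif, which stayed under 1 FPKM. The part of such cells in the values of Socs3 and Lif was not tested. The members of the theca and luteal lists did not share 1 order of groups. Of the theca genes, Cyp17a1 stood at 346, 183.5 and 191 FPKM and Lhcgr at 134, 143 and 104. Of the luteal genes, the row of Akr1c18, merged with Akr1c12, measured 2672, 1084 and 1496 FPKM (each interval reaching 0), Ptgfr at 78.6, 78.1 and 73.3, and Prlr was highest in HFLN. Their part in the values was not tested either. Leucocyte markers other than those of macrophages were scarce: the 5 neutrophil genes ran from 0.0247 to 1.43 FPKM over the groups and summed to 3.03, 3.73 and 3.19, and the 4 T cell genes summed to 1.94, 2.57 and 2.19. The 5 macrophage rows, of which those of Cd68 (with Eif4a1) and Lyz2 (with Lyz1) are merged, summed to 370, 351 and 455 FPKM. The merged row of Lyz2 alone, at 252, 236 and 337 FPKM, carried that difference, while Csf1r stood at 12.3, 11.8 and 12.5 and Cd14 at 8.18, 7.90 and 7.99. Of 5 adipocyte markers, 1 passed in HFOB against control (0.366% of all rows) and 1 against HFLN (0.195%), Lep in both cases. Lep stood at 2.101 FPKM (0.759 to 3.44) in HFOB, 0.223 (0 to 0.455) in control and 0.332 (0.0392 to 0.625) in HFLN. Fabp4 (77.2, 87.2 and 139 FPKM) and Adipoq (14.7, 11.9 and 21.5) were also above control in HFOB. Plin1 (13.0, 10.6 and 12.3) and Cfd (103, 86.4 and 62.2, each interval reaching 0) were below it. The part of adipocytes in the values was not tested. The leptin receptor gene Lepr, whose signal Socs3 restrains, stood at 3.31, 3.30 and 3.40 FPKM.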

How the data were processed

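Ovarian RNA of 9 mice in 3 groups of 3 was sequenced from strand-specific messenger RNA libraries (per the labels' protocols). Tools listed in the submitters' processing notes, without roles or order, are Cuffdiff 2.2.1.3, Cufflinks 2.2.1.0, TopHat2 2.1.0 and Trimmomatic 0.32.3, and the build mm10. Per the file headers, the authors deposited FPKM for each row, 1 value per group with a lower and an upper bound and a status. Depth per animal is unknown, so no counting interval is given. Of 36886 RefSeq identifiers 99.2% matched the GRCm38.p6 annotation (the assembly behind mm10), which gave symbols, biotypes and gene spans; 8920 rows had no symbol and 765 held several.

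Log2 folds used a pseudocount of 1 FPKM. The pass rule was run over the whole table with Python 3.11.15 and pandas 2.3.3. It was tried on simulated rows with changes larger and intervals narrower than those of the 10 genes. That trial checked the code and not how often the rule finds differences of the size seen here. A limma fit had been planned for values of single animals and did not apply. The 10 genes, the lists and the rules were chosen with earlier results of these data known. Named were the 10 genes, passing list genes and rows among the 5 nearest Socs3. Also named were the 2 widest per list against control, where their values bear on the 10 genes. Named beyond these rules were Jak1, Stat5a, Stat5b, Osm, Il31ra, Lifr, Lepr, Tyk2, Il27ra, Cd68, Cd14 and Csf1r. So were Lhcgr, Ptgfr, Adipoq, Plin1, Cfd, Socs4 to Socs7, Cebpb, Hp, Lcn2, Mcl1, Bcl2l1, Serpina3n, Fshr and Foxl2. Some genes that met these rules are left out here. Alternatives covered the pseudocount, the FPKM minimum, the fold, the scaling and the summing of rows. None of those for the pass rule dropped the demand that intervals do not overlap.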

Additional observations from a re-analysis of the deposited data

How the results depend on the processing

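None of the 10 genes and none of the pathway rows passed in any comparison under the alternative settings. These were a pseudocount of 0.1 FPKM, no minimum, a minimum of 5 FPKM, a fold of 1.5, no fold, and scaling by median ratios. The counts over all rows stayed within 1.5 times of those given. Each setting kept the demand that intervals do not overlap, which none of the 10 genes or pathway rows met before scaling. Only the scaling could therefore have changed those counts of 0. That scaling moved all log2 folds by at most 0.02. Summing rows could change the log2 folds of Socs1, Socs3 and Cish only, since the other genes had 1 row each. The count that follows therefore holds many values that could not move, or hardly so. Of 90 recomputed log2 folds of single genes, 0 changed sign and 86 moved by less than the half-widths of the deposited intervals. The others were low genes with a pseudocount of 0.1 FPKM: Il6 at -1.56 in HFLN and -2.05 in HFOB against control, and Lif at -0.72 in HFOB against control and -0.79 in HFOB against HFLN. No paired analysis was possible because the table holds 1 value per group, and for the same reason no animal could be left out.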
